A study of Mus musculus with 30 samples.

Results

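The genes described here drive DNA replication and mitosis, set the pace of G1, or inhibit cyclin-dependent kinases (CDKs). They were taken from a list of 42 members by gene symbol, and the brightest Affymetrix probe set annotated to each symbol was used. Of the 42 members, 41 were measured among the 15136 genes tested: 18 replication genes, 16 mitosis genes, 5 G1 cyclins and the CDK inhibitors Cdkn1b and Cdkn1c. Ccnb1 was not matched to a probe set with a single symbol and is not analysed here. All 41 were tested in every comparison, and all 41 passed the filter on low values.

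A cell licenses its replication origins in G1, when Cdc6 and Cdt1 load the Mcm2-7 helicase onto DNA. D-type and E-type cyclins then carry it into S phase by releasing E2F transcription factors from the RB family, and E2F targets include most of the replication genes. Mitotic genes are transcribed later, in G2, and the DREAM and MuvB complexes that regulate them read CHR promoter elements. Many mitotic promoters also hold CCAAT boxes. Limb bud mesenchyme proliferates before it condenses, and leaving the cell cycle accompanies differentiation into cartilage, in which Cdkn1c is a known inhibitor of division. In a bulk culture, fewer dividing cells and less mRNA in each cell cannot be told apart.

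The arrays hold RNA of primary high-density cultures of limb bud cells. The donor embryos (E10.5, mouse) were of strain CD-1, an outbred stock for which the labels name no genetic alteration. The early population came from the distal hindlimb bud, the intermediate from the distal forelimb bud and the late from the proximal forelimb bud. Each population was cultured in control medium and sampled at days 0, 1 and 2, or with BMP4, a secreted bone morphogenetic protein, at 20 ng/ml, added at time 0, and sampled at days 1 and 2. All medium contained fetal bovine serum, so the controls received it too, and RNA came from cultures derived from about 280 embryos. Each of the 15 groups holds 2 arrays labelled as biological replicates, 30 in all. Whether these are separate pools of embryos is not stated, so p-values measure the spread between arrays as labelled.

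Levels are given as log2(signal + 16) of the deposited linear signal intensity. On this scale a difference of 1 is a doubling of signal for bright genes and more than a doubling for dim ones. Differences come from 1 limma fit of all 30 arrays and are given with their standard error (SE). A gene was called where its p-value, adjusted by Benjamini-Hochberg over the 15136 genes, lay below 0.05. Limb mesenchyme markers (Prrx1, Twist1 and others, 8 genes) had medians of 10.35 to 10.57 on the day 0 arrays, so the markers of the labelled tissue were present.

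The day 0 arrays of replicate 2 go against their population labels. The library labelled early, day 0, replicate 2 had Pitx1, a hindlimb gene, at 5.90 and Tbx5, a forelimb gene, at 8.50, against 9.74 and 4.47 in replicate 1. The library labelled intermediate, day 0, replicate 2 had the opposite, with Pitx1 at 9.43 and Tbx5 at 4.68. In the library labelled late, day 0, replicate 2, the proximal gene Meis2 stood at 7.53 against 9.60 in replicate 1. An exchange of arrays between populations at day 0 would not alter a mean over the 3 populations, so changes over time are given first as that mean, and the counts without these 3 arrays are given beside them.

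The promoters of the 2 replication and the 2 mitosis genes with the largest fall over culture show what differs upstream of the members. Each is the 250 bases before the listed start from RefSeq (build GRCm38.p6), read 5′ to 3′ on the gene's strand. Capitals mark matches, on either strand, to an E2F-type motif (TTTCCCGC, TTTCGCGC, TTTGCCGC or TTTGGCGC), the CHR (TTTGAA) or the CCAAT box (CCAAT).
Cdc6, chr11:98907901-98908150, + strand: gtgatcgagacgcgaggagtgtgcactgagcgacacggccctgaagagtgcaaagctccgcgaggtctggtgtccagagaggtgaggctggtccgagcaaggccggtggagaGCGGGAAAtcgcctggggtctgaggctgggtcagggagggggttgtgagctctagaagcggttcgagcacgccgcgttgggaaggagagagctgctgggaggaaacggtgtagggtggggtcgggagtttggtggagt
Cdt1, chr8:122567765-122568014, + strand: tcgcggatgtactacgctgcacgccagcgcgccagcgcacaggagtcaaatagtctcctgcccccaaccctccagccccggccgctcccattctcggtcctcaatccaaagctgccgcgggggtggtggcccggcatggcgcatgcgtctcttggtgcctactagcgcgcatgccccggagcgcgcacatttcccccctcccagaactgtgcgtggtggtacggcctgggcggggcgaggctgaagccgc
Bub1, chr2:127831860-127832109, - strand: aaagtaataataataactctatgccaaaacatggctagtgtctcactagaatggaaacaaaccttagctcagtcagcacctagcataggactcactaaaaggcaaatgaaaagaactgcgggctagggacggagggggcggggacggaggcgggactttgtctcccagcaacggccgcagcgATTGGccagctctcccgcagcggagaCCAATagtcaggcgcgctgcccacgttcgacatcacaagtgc
Top2a, chr11:99024190-99024439, - strand: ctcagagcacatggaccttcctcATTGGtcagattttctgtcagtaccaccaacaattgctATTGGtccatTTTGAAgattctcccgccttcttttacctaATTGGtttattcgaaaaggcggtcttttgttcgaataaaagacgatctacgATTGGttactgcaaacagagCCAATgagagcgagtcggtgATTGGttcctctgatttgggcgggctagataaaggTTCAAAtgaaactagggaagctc

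The Cdc6 promoter held an E2F-type motif that begins 138 bases before the start. None of these letters occurred in the Cdt1 window. Bub1 had CCAAT boxes at 68 and 42 bases before the start. Top2a, which encodes the topoisomerase that untangles sister chromatids, had 6 CCAAT boxes between 227 and 58 bases before the start and CHR letters at 179 and 23 bases.

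RefSeq entries were found for 31 of the 42 members, among them 14 replication and 14 mitosis genes, Ccnb1 included. An E2F-type motif occurred in 5 of 14 replication promoters (35.7%: Mcm5, Mcm6, Mcm7, Cdc6 and Pola1) and in 1 of 14 mitosis promoters (7.14%, Cdk1), against 1.91% of 27025 genes. The CHR letters occurred in 6 of 14 mitosis promoters (42.9%: Ccnb2, Cdk1, Cdc20, Kif11, Top2a and Mki67) and in 2 of 14 replication promoters (14.3%, Mcm2 and Cdc45), against 16.3% of all. CCAAT boxes were frequent in both classes, in 13 of 14 mitosis promoters (92.9%) and 10 of 14 replication promoters (71.4%), against 34.5% of all. Further genes, from lists that do not overlap with the members, gave lower shares, with 26 replication and 40 mitosis genes found. There the E2F-type motif occurred in 11.5% of replication and 7.5% of mitosis promoters. The CHR letters occurred in 7.69% and 30%, and CCAAT boxes in 53.8% and 62.5%. Whether the classes differ in motifs was not tested. A match describes letters and not binding.

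Across 2 days of control culture the replication genes fell nearly as a block, while the mitosis genes divided into those that fell and those that did not pass the test. Averaged over the 3 populations, 17 of 18 replication genes were lower at day 2 than at day 0, with a median of -0.63 on the log2 scale. Of the 16 mitosis genes, 10 were lower, with a median of -0.43. Of the 5 G1 cyclins, 4 were higher, Ccnd3 among them by its brightest probe set but not with its probe sets averaged, and Ccne1 was lower, and Cdkn1c was higher and Cdkn1b lower. In all, 29 of 41 members were lower, against 21.5% of the tested genes, and 5 were higher, against 26.9%, and the median of all tested genes was -0.01. Whether the replication and mitosis classes differ from each other was not tested.

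**Figure D1:**
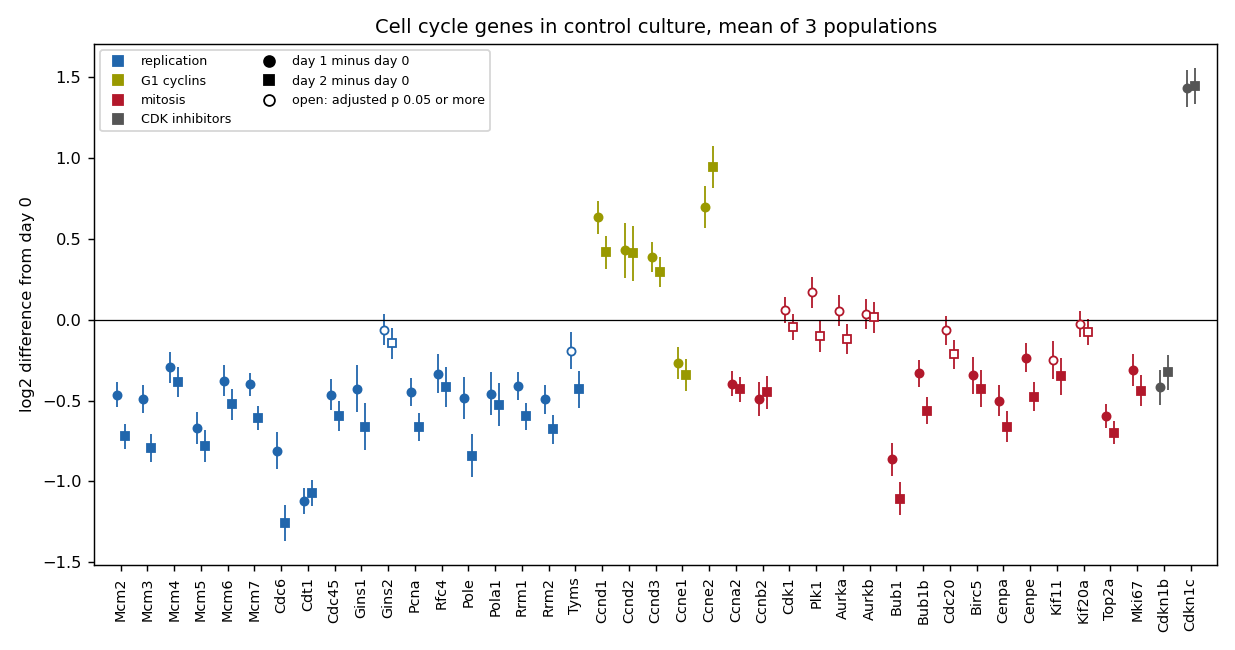
Log2 difference from day 0 in control culture for each of the 41 measured members, mean of 3 populations, at day 1 (circles) and day 2 (squares). Bars are the SE of the limma fit, filled symbols passed adjusted p below 0.05, and colours give the class. Nearly all replication genes lie below 0 at both days, whereas Cdk1, Plk1, Aurka, Aurkb and Kif20a lie near 0.

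Many of these members already differed from day 0 at day 1. Between day 0 and day 1, 27 members were lower, against 17% of tested genes, and 5 were higher, against 22.5%. The lower members were 16 of 18 replication genes (median -0.45), 9 of 16 mitosis genes (median -0.28), Ccne1 and Cdkn1b. Of these calls, median centring lost Gins1, Rfc4, Birc5, Cenpe, Mki67 and Ccne1. Quantile normalization lost Mcm4 and Ccne1, averaging of probe sets Bub1b, and a fit of the compared arrays alone Cenpe. Between day 1 and day 2, only Mcm2, Mcm3 and Cdc6 were lower, against 2.94% of tested genes, and 0 members were higher, against 5.61%. In that second interval 13 of 41 members had an unadjusted p below 0.05 in limma, all of them lower, 4 of these being mitosis genes, against 21.9% of tested genes in either direction. With each array centred on its median, or without the array of early, day 2, control, replicate 1, limma called 0 members for day 2 against day 1. The comparisons of days 1 and 2 with day 0 share the day 0 arrays.

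The 3 doubted day 0 arrays carry part of these calls. Without them, 22 members were called for day 1 against day 0 (19 lower, 3 higher) and 28 for day 2 against day 0 (26 lower, 2 higher). All 17 replication calls of day 2 held and 9 of the 10 mitosis calls did, the exception being Kif11. Of the G1 cyclins and inhibitors, Ccnd1, Ccnd2, Ccnd3, Ccne1 and Cdkn1b lost their day 2 call, and Ccne2 and Cdkn1c kept theirs.

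Among replication genes, the factors that load the helicase had the largest falls on both days. Cdc6, the ATPase that brings the helicase to origins, lay at 9.13 (lowest), 9.49 (median) and 9.78 (highest) on the 6 day 0 arrays. It lay at 8.49, 8.61 and 8.81 on the day 1 controls and at 7.92, 8.25 and 8.42 on the day 2 controls. The 3 sets of arrays did not overlap and stepped down each day. The difference from day 0 was -0.81 ± 0.11 at day 1 (limma adjusted p = 6.76e-06) and -1.26 ± 0.11 at day 2 (adjusted p = 9.71e-09), which leaves 41.9% of the day 0 level.

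Cdt1, the partner of Cdc6 in licensing, made its whole drop within the first day. Its levels were 11.15, 11.37 and 11.53 at day 0, 10.09, 10.24 and 10.27 at day 1, and 9.94, 10.34 and 10.48 at day 2. The differences from day 0 were -1.12 ± 0.08 at day 1 (limma adjusted p = 1.56e-09) and -1.07 ± 0.08 at day 2 (adjusted p = 1.16e-09), and the day 1 and day 2 arrays overlapped throughout.

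The 6 Mcm subunits, which form the ring of the replicative helicase, all fell, by 0.30 (Mcm4) to 0.67 (Mcm5) at day 1 and by 0.38 (Mcm4) to 0.79 (Mcm3) at day 2. Mcm2 went from 10.60, 10.82 and 11.06 at day 0 to 10.24, 10.34 and 10.48 at day 1 and 9.97, 10.05 and 10.30 at day 2. Its day 0 arrays all lay above the later ones, and the step from day 1 to day 2 was -0.26 ± 0.08 (limma adjusted p = 0.0425). Mcm3 moved by -0.30 ± 0.09 in the same interval (adjusted p = 0.0316), as did Cdc6 by -0.45 ± 0.11 (adjusted p = 0.0161). The Mcm2 and Mcm3 calls of this interval were lost when probe sets were averaged.

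Cdc45 and the GINS complex join the Mcm ring to make it an active helicase. Cdc45 changed by -0.60 ± 0.10 at day 2 and Gins1 by -0.66 ± 0.15. Gins2 did not pass, with medians of 9.19, 9.13 and 9.04 at days 0, 1 and 2 and a day 2 difference of -0.15 (95% interval -0.35 to 0.06, limma adjusted p = 0.228).

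The sliding clamp, its loader and the polymerases moved with the helicase. Pcna, the clamp that tethers polymerases to DNA, went from a day 0 median of 12.23 to 11.74 at day 1 and 11.55 at day 2, a fall of 0.66 ± 0.09. Pole, the catalytic subunit of the leading-strand polymerase, fell by 0.84 ± 0.13 at day 2. The loader subunit Rfc4 and the primase-polymerase subunit Pola1 fell by 0.42 ± 0.12 and 0.53 ± 0.13.

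Enzymes that make deoxynucleotides fell too. Rrm1 and Rrm2, the subunits of ribonucleotide reductase, fell at day 2 by 0.60 ± 0.09 and 0.68 ± 0.09. Tyms, which makes thymidylate, was dim, with day medians of 6.05, 5.87 and 5.63. It did not pass at day 1 (-0.19 ± 0.11, limma adjusted p = 0.192) and passed at day 2 (-0.43 ± 0.11, adjusted p = 0.00305), a call lost when probe sets were averaged.

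For all 17 replication genes that fell, each of the 6 day 2 control arrays lay below each of the 6 day 0 arrays. Over the tested genes, 12.6% had groups separated downward in this way and 17.3% upward. Among mitosis genes the day 2 arrays lay wholly below in 8 of 16. At day 1 the downward separation held for 12 replication and 5 mitosis genes, against 8.82% of the tested genes.

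**Figure D2:**
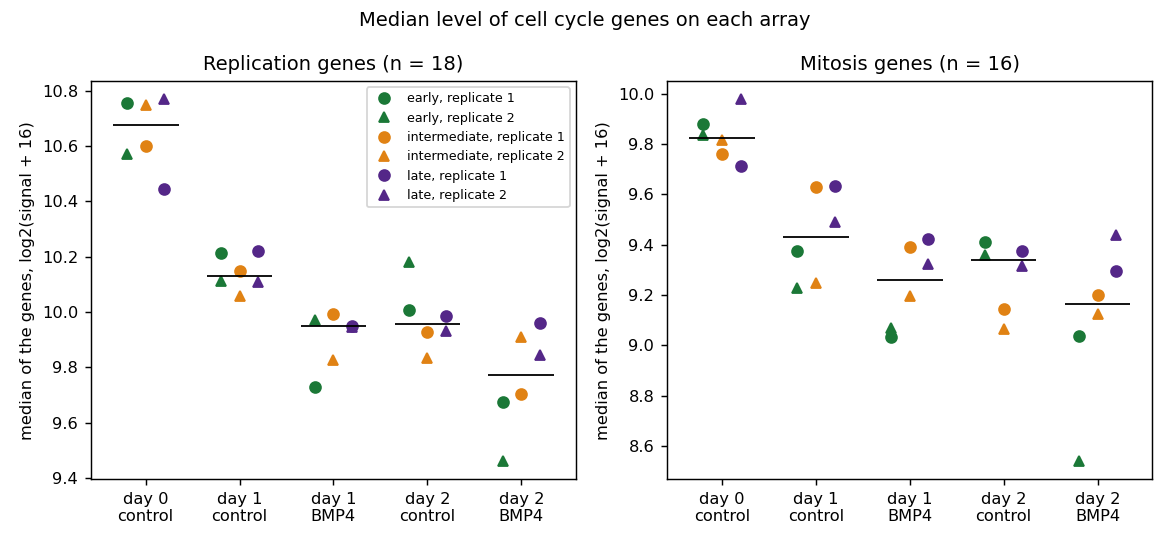
Median level of the 18 replication genes (left) and of the 16 mitosis genes (right) on each of the 30 arrays, in log2(signal + 16). Colour gives the population, shape the replicate and the black line the median of the 6 arrays of a condition. Day 0 arrays stand above all others in both panels, and the array of early, day 2, BMP4, replicate 2 stands lowest at 9.46 and 8.54.

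Among mitosis genes the largest falls were in the spindle checkpoint and in chromosome structure. Bub1, a checkpoint kinase of the kinetochore, lay at 9.89, 10.09 and 10.29 on the day 0 arrays, at 9.07, 9.25 and 9.34 at day 1 and at 8.55, 9.04 and 9.14 at day 2. Day 0 lay clear of both later days. It fell by 0.86 ± 0.10 at day 1 and by 1.11 ± 0.10 at day 2 (limma adjusted p = 1.24e-08), to 46.4% of the day 0 level.

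Top2a lay at 11.06, 11.10 and 11.29 at day 0, at 10.19, 10.57 and 10.80 at day 1 and at 10.19, 10.51 and 10.59 at day 2. The day 2 difference was -0.70 ± 0.07 (limma adjusted p = 9.89e-08). Cenpa, the centromeric histone, fell by 0.66 ± 0.10, Bub1b, a checkpoint inhibitor of the anaphase ligase, by 0.56 ± 0.08, and Cenpe, a kinetochore motor, by 0.48 ± 0.09. The spindle motor Kif11, the chromosome passenger Birc5 and the proliferation antigen Mki67 fell by 0.35 ± 0.12, 0.43 ± 0.11 and 0.44 ± 0.10. The cyclins Ccna2 and Ccnb2, activators of CDKs in S phase and mitosis, fell by 0.43 ± 0.08 and 0.45 ± 0.10.

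Another set of mitotic regulators did not pass. Cdk1, the kinase that Ccnb2 activates, lay at 10.32, 10.40 and 10.54 at day 0, at 10.32, 10.48 and 10.55 at day 1 and at 10.10, 10.38 and 10.48 at day 2, so its arrays overlapped on all days. The day 2 difference was -0.04 (95% interval -0.21 to 0.12, limma adjusted p = 0.691). Plk1, the kinase that promotes mitotic entry and spindle assembly, lay at medians of 9.39, 9.53 and 9.31, with a day 2 difference of -0.10 (interval -0.31 to 0.10). Aurka and Aurkb, kinases of the spindle pole and of the centromere, differed by -0.12 (interval -0.32 to 0.07) and 0.01 (interval -0.18 to 0.21).

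Kif20a, a cytokinesis motor, differed by -0.08 (interval -0.25 to 0.09). Cdc20, the activator of the anaphase ligase, was close to the threshold at -0.22 ± 0.09 (limma adjusted p = 0.054). A second Cdc20 probe set passed in a fit of all probe sets (-0.32 ± 0.07, limma adjusted p = 0.00104). For Cdk1, Plk1, Aurka, Aurkb and Kif20a, these intervals leave no room for a fall as large as the -0.70 of Top2a.

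**Figure D3:**
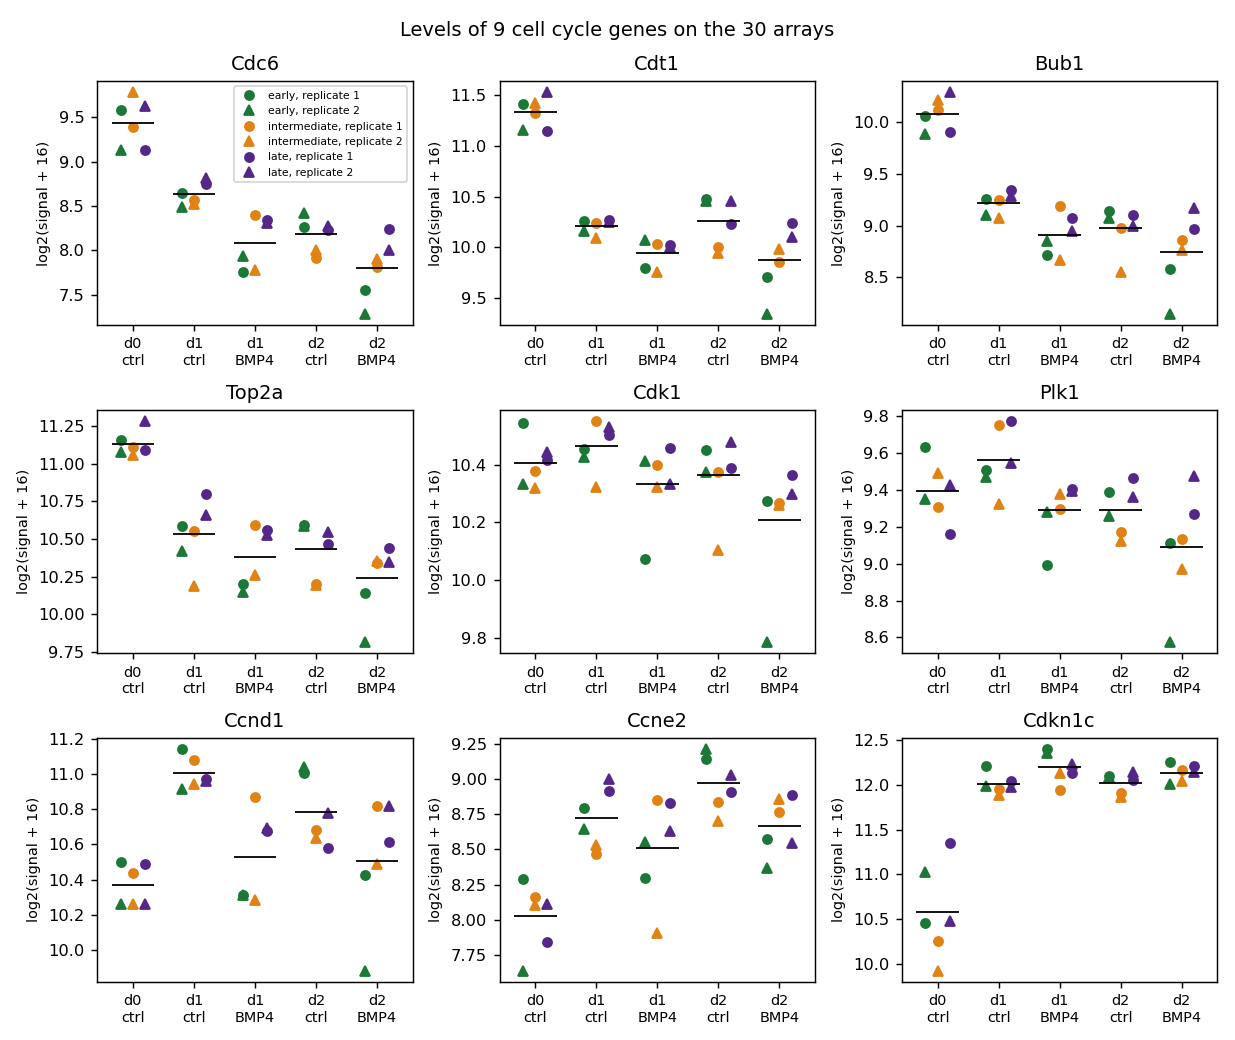
Level of 9 members on each of the 30 arrays, in log2(signal + 16), by condition (d, day; ctrl, control). Colour gives the population, shape the replicate and the black line the mean of 6 arrays. Cdc6, Cdt1, Bub1 and Top2a drop after day 0, Cdk1 and Plk1 overlap between days, and Ccne2 and Cdkn1c are higher on all arrays of days 1 and 2 in control medium than on any at day 0.

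Of the G1 cyclins, Ccnd1, Ccnd2 and Ccne2 moved against the replication genes, while the direction of Ccnd3 depended on the probe set. Ccnd1, a D-type cyclin that activates CDK4 and CDK6, had a median of 10.35 and a lowest array of 10.26 at day 0, and lay at 10.92, 10.97 and 11.14 at day 1 and at 10.58, 10.73 and 11.04 at day 2. Every later control array lay above every day 0 array. It was higher by 0.63 ± 0.10 at day 1 (limma adjusted p = 3.17e-05) and by 0.42 ± 0.10 at day 2 (adjusted p = 0.00158).

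Ccne2, an E-type cyclin that activates CDK2 at the start of S phase, lay at 7.64, 8.11 and 8.29 at day 0 and at 8.70, 8.97 and 9.21 at day 2. It rose by 0.70 ± 0.13 at day 1 and by 0.95 ± 0.13 at day 2 (limma adjusted p = 3.01e-06). Its paralog Ccne1 went the other way, by -0.27 ± 0.10 at day 1 and -0.34 ± 0.10 at day 2 (adjusted p = 0.00651), with day 0 and day 2 arrays that overlapped at 10.29 to 10.58 and 9.55 to 10.37.

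The D-type cyclins Ccnd2 and Ccnd3 were nearer the threshold. Ccnd2 was higher by 0.43 ± 0.17 at day 1 (limma adjusted p = 0.0484) and 0.41 ± 0.17 at day 2 (adjusted p = 0.0493), and its other probe sets were higher as well. Both Ccnd2 calls were lost with a pseudocount of 1 and without the filter on low values. Ccnd3 was higher by 0.39 ± 0.09 and 0.30 ± 0.09, but a dimmer Ccnd3 probe set fell at day 2 (-0.60 ± 0.17, limma adjusted p = 0.00507), and the average of both probe sets was -0.15 (adjusted p = 0.253).

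Cdkn1c, the CDK inhibitor p57, showed the largest change of any member. Its levels were 9.92, 10.47 and 11.35 at day 0, 11.88, 11.98 and 12.21 at day 1, and 11.86, 12.07 and 12.15 at day 2. Even the highest day 0 array lay below all later control arrays. It rose by 1.43 ± 0.11 at day 1 (limma adjusted p = 3.39e-09) and 1.45 ± 0.11 at day 2 (adjusted p = 1.22e-09), a 2.72-fold increase. Cdkn1b, the related inhibitor p27, fell by 0.42 ± 0.11 and 0.33 ± 0.11, with overlapping arrays on all days.

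The further genes of the pathway, from lists that do not overlap with the members, were also lower more often than higher among replication and mitosis genes at day 2. Over all tested genes 21.5% were lower and 26.9% higher at that day. Of 29 further replication genes, 21 were lower and 2 higher (median -0.48), led by Dbf4, the activator of the Cdc7 kinase (-0.75 ± 0.06), Dut, which clears dUTP (-0.95 ± 0.07), and Uhrf1, which maintains DNA methylation at forks (-1.03 ± 0.11). Of 46 further mitosis genes, 25 were lower and 3 higher (median -0.33), led by the kinase Nek2 (-1.22 ± 0.11), the condensin subunit Smc2 (-0.64 ± 0.06) and the transcription factor Mybl2 (-0.82 ± 0.09). At day 1 the cyclin Ccnf (0.71 ± 0.09) and the cytokinesis protein Anln (0.74 ± 0.10) rose against the other mitosis genes.

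Of 20 E2F, RB family and G1 kinase genes, 12 were lower at day 2 and 3 higher (median -0.40). E2f2, an activating E2F, fell by 1.75 ± 0.17, and E2f5 and E2f8, repressive E2Fs, fell by 0.94 ± 0.10 and 0.99 ± 0.12. Rbl2, the RB family member p130 of resting cells, rose by 0.73 ± 0.11 between day 1 and day 2 (limma adjusted p = 0.000292). Among 10 other CDK inhibitors and antiproliferative genes, 5 were higher and 2 lower at day 2 (median 0.35), against 26.9% and 21.5% of tested genes. The CDK4 and CDK6 inhibitor Cdkn2b rose by 2.74 ± 0.18 and the p53 target Ccng1 by 3.07 ± 0.32, whereas Ccng2, a cyclin of resting cells, fell by 0.80 ± 0.10. Another inhibitor of CDK4 and CDK6, Cdkn2c, rose by 1.03 ± 0.12 between day 1 and day 2.

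Marker genes of several cell types moved in the same interval, and whether cell numbers changed was not measured. From day 0 to day 1, 6 of 8 red blood cell genes fell (Hbb-bh1 by 7.02 ± 0.29), and their summed signal went from 7521.9 to 17667.1 on the day 0 arrays to 228.8 to 495.8 at day 1. Endothelial genes fell in 8 of 10 cases, with sums of 673.8 to 1109 at day 0 and 374.7 to 492.6 at day 1. Cartilage genes rose in 9 of 10 cases (sums of 1113.1 to 2748.9 and 7620.2 to 11691.9), and skeletal muscle genes in 8 of 10 (259.5 to 638.8 and 1591.7 to 9028.9). In each of the last 2 lists 1 gene fell. Limb mesenchyme genes gave 4 lower and 2 higher of 8, ectoderm genes 3 lower of 9, and macrophage genes 2 lower and 1 higher of 9. Over all tested genes 17% were lower and 22.5% higher in this interval. The part of these shifts in the cell cycle changes was not tested.

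Within single populations the same comparison rests on 2 arrays against 2. From day 0 to day 2 the early population had 15 members lower (against 9.31% of tested genes) and 3 higher (14.8%). The intermediate had 29 lower (12.7%) and 2 higher (17.6%), and the late had 16 lower (10.6%) and 2 higher (16.9%). All 18 replication genes had a difference below 0 in every population. With the day 0 arrays as labelled, 14 members were called lower in all 3 populations. They were Mcm2, Mcm3, Mcm5, Mcm7, Cdc6, Cdt1, Pcna, Rrm1, Rrm2, Bub1, Bub1b, Cenpa, Cenpe and Top2a. Ccne2 and Cdkn1c were called higher in all 3. An exchange of day 0 arrays would mix the populations, so these are not 3 separate results.

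No share of all tested genes is given for calls in all 3 populations. The counts by population, and with them the calls in all 3, depend on the doubted day 0 arrays and on single arrays. Without the 3 arrays, the intermediate count went from 31 to 18 and the late from 18 to 10. Leaving out a single array gave 19 for the intermediate (without its day 0 replicate 2), 11 for the late (without its day 0 replicate 2) and 10 for the early population (without its day 0 replicate 1, from 18). The populations cannot be ranked by these counts.

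In control medium at days 1 and 2, the limma fit found 0 members different between populations. The doubted arrays enter these comparisons through the shared estimate of the spread alone, and without them the counts were also 0. Background shares were 1.48% for early against late, 0.852% for early against intermediate and 2.64% for intermediate against late. Unadjusted p-values below 0.05 were found for 0, 4 and 9 of 41 members in these comparisons, against 8.8%, 8.08% and 13.1% of tested genes. The 9 were all lower in the intermediate than in the late population, and the nearest to passing was Top2a (-0.33 ± 0.09, limma adjusted p = 0.0524). Over the 3 comparisons the 95% intervals of the members lay between -0.67 and 0.65.

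With BMP4, few members passed the main fit, which held no replicate term, in the average over populations. At day 1, averaged over populations, 38 of 41 members lay below control, with a median of -0.21 against 0.01 for all tested genes. Called lower were Mcm3, Cdc6, Ccnd1 and Ccna2, 4 members against 2.7% of tested genes, and 22 members had an unadjusted p below 0.05, all lower, against 19.9% of tested genes in either direction. The count was 2 with each array centred on its median, which lost Mcm3 and Ccna2. The count reached 13 with a replicate block, and ranged from 2 to 13 when single arrays were left out. It was 13 without the array of intermediate, day 1, BMP4, replicate 1, and 2 without any of 5 others: intermediate control replicate 1, intermediate BMP4 replicate 2, late control replicate 1, late BMP4 replicate 2 and early control replicate 1.

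Cdc6 lay at 7.75, 8.12 and 8.40 on the 6 BMP4 arrays of day 1, against 8.49, 8.61 and 8.81 on the controls, with no overlap. The difference was -0.54 ± 0.11 (limma adjusted p = 0.00531). Ccnd1 lay between 10.29 and 10.87 with BMP4 against 10.92, 10.97 and 11.14, again without overlap (-0.48 ± 0.10, adjusted p = 0.00587). Its day 0 median was 10.35, within the range of the BMP4 arrays. Groups separated downward like this in 3 members, against 1.36% of tested genes.

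Mcm3 differed by -0.33 ± 0.09 (limma adjusted p = 0.0245) and Ccna2 by -0.28 ± 0.08 (adjusted p = 0.0348). Both calls were also lost with probe sets averaged and in a fit of the compared arrays alone. Of the further replication genes 8 of 29 were lower, against 2.7% of tested genes. They were led by the kinase Cdc7 (-0.42 ± 0.08), Dut (-0.36 ± 0.07) and the thymidine kinase Tk1 (-0.84 ± 0.17). Cdkn2b was higher by 1.00 ± 0.18 and the growth arrest gene Gas1 lower by 0.73 ± 0.10. Other cell markers moved in the same averages. Macrophage and leukocyte genes were higher in 4 of 9 cases at day 1 (median 0.48, all 9 above 0). At day 2, 7 of 9 were higher (median 0.73). Cartilage genes were higher in 2 of 10 cases at day 1 (median 0.09, 4 below 0) and limb mesenchyme genes in 2 of 8. Endothelial genes were lower in 1 of 10 cases at that day. Limb mesenchyme genes gave 2 higher and 1 lower of 8 at day 2. The median of all tested genes was 0.01 on both days, and no share of them called higher is given. The part of these markers in the members' values was not tested.

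**Figure D4:**
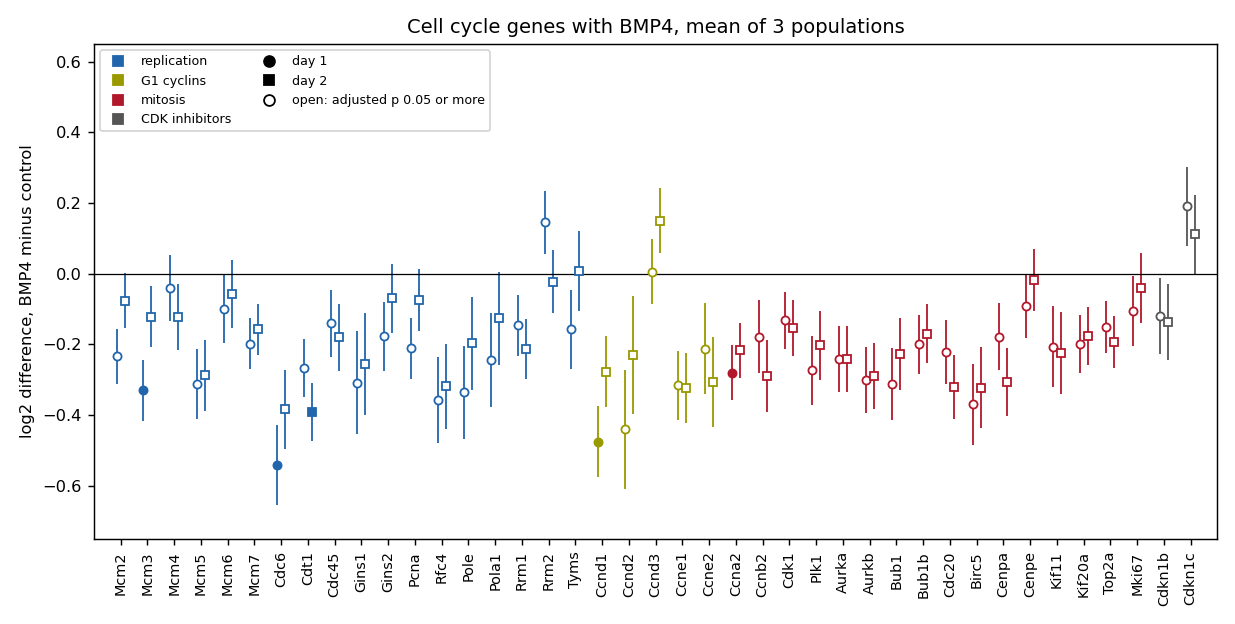
Log2 difference of BMP4 against control for each of the 41 measured members, mean of 3 populations, at day 1 (circles) and day 2 (squares). Bars are the SE of the limma fit, filled symbols passed adjusted p below 0.05, and colours give the class. Most members lie below 0 on both days, with Mcm3, Cdc6, Ccnd1 and Ccna2 filled at day 1 and Cdt1 at day 2.

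At day 2 a single member was called in the average over populations, Cdt1 (-0.39 ± 0.08, limma adjusted p = 0.0144), against 0.727% of tested genes. The median of the members was -0.20, 38 of 41 lay below 0, and 19 had an unadjusted p below 0.05, all lower, against 14.8% of tested genes in either direction. By population, 37 members lay below 0 in the early, 19 (median 0.02) in the intermediate and 29 (median -0.06) in the late cultures. Leaving out single arrays gave counts of 0 to 8. It was 8 without early BMP4 replicate 1, 2 without late control replicate 1, and 0 without early BMP4 replicate 2, early control replicate 1, late control replicate 2 or late BMP4 replicate 2. No member's response differed between day 1 and day 2 in limma (0 called against 0.0132% of tested genes, and 0 with an unadjusted p below 0.05).

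By population at day 2, members were called in the early cultures alone, while the test of the response between populations, given last, passed for 1 member. In the early population 17 members were lower with BMP4, against 3.28% of tested genes: 10 mitosis genes, 5 replication genes (Mcm5, Cdc6, Cdt1, Rfc4 and Pole), Ccnd1 and Ccne1. An unadjusted p below 0.05 was found for 28 members, against 20.4% of tested genes. In the intermediate population limma called 0 members (against 0.00661% of tested genes, 0 with an unadjusted p below 0.05), and in the late 0 (against 0.0132%, 1 with an unadjusted p below 0.05). The members' 95% intervals ran from -0.71 to 0.62 in the intermediate and from -0.72 to 0.62 in the late population.

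In the early cultures at day 2, Cdt1 stood at 9.70 and 9.34 with BMP4 and at 10.48 and 10.45 in controls. The difference was -0.94 ± 0.14 (limma adjusted p = 0.000791). Cdc6 stood at 7.55 and 7.29 against 8.27 and 8.42 (-0.92 ± 0.19, adjusted p = 0.00817). Both replicates of each gene were lower than both controls, and in both genes replicate 2 was the lower of the pair.

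Ccnd1 stood at 10.43 and 9.89 against 11.00 and 11.04 (-0.87 ± 0.17, limma adjusted p = 0.00577). Kif20a, which did not pass between days in control medium, stood at 8.15 and 7.80 against 8.65 and 8.71 (-0.71 ± 0.14, adjusted p = 0.00556). Ccnb2 stood at 8.96 and 8.50 against 9.76 and 9.47 (-0.88 ± 0.18, adjusted p = 0.00587). In these 3 genes too, both BMP4 arrays lay below both controls.

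Aurkb and Cdc20, which also did not pass between day 0 and day 2 in control medium, were lower with BMP4 in early cultures, by 0.69 ± 0.16 (limma adjusted p = 0.0157) and 0.66 ± 0.16 (adjusted p = 0.0166). The other mitosis genes called were Ccna2, Bub1, Bub1b, Birc5, Cenpa and Top2a, with differences of -0.78 (Birc5) to -0.51 (Ccna2). Cdk1, Plk1 and Aurka did not pass, at -0.38 ± 0.14, -0.48 ± 0.17 and -0.47 ± 0.16. Neither inhibitor moved with the rest, with Cdkn1b at 0.11 ± 0.19 and Cdkn1c at 0.04 ± 0.19.

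Both BMP4 arrays of early day 2 lay below both controls in 34 of 41 members, against 25% of tested genes. In 37 of 41 members replicate 2 was lower than replicate 1, for which no share of all tested genes is given. The median difference from the control mean was -0.33 for replicate 1 and -0.73 for replicate 2. With each array centred on its median, the median of all genes in this comparison moved from 0.02 to -0.15. The median of the mitosis genes was 8.54 on replicate 2, 9.04 on replicate 1, and 9.41 and 9.36 on the controls. The call count rests on these few arrays. It was 1 without BMP4 replicate 2 or without control replicate 1, and 7 without control replicate 2. A fit of the 4 compared arrays alone also called 1.

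**Figure D5:**
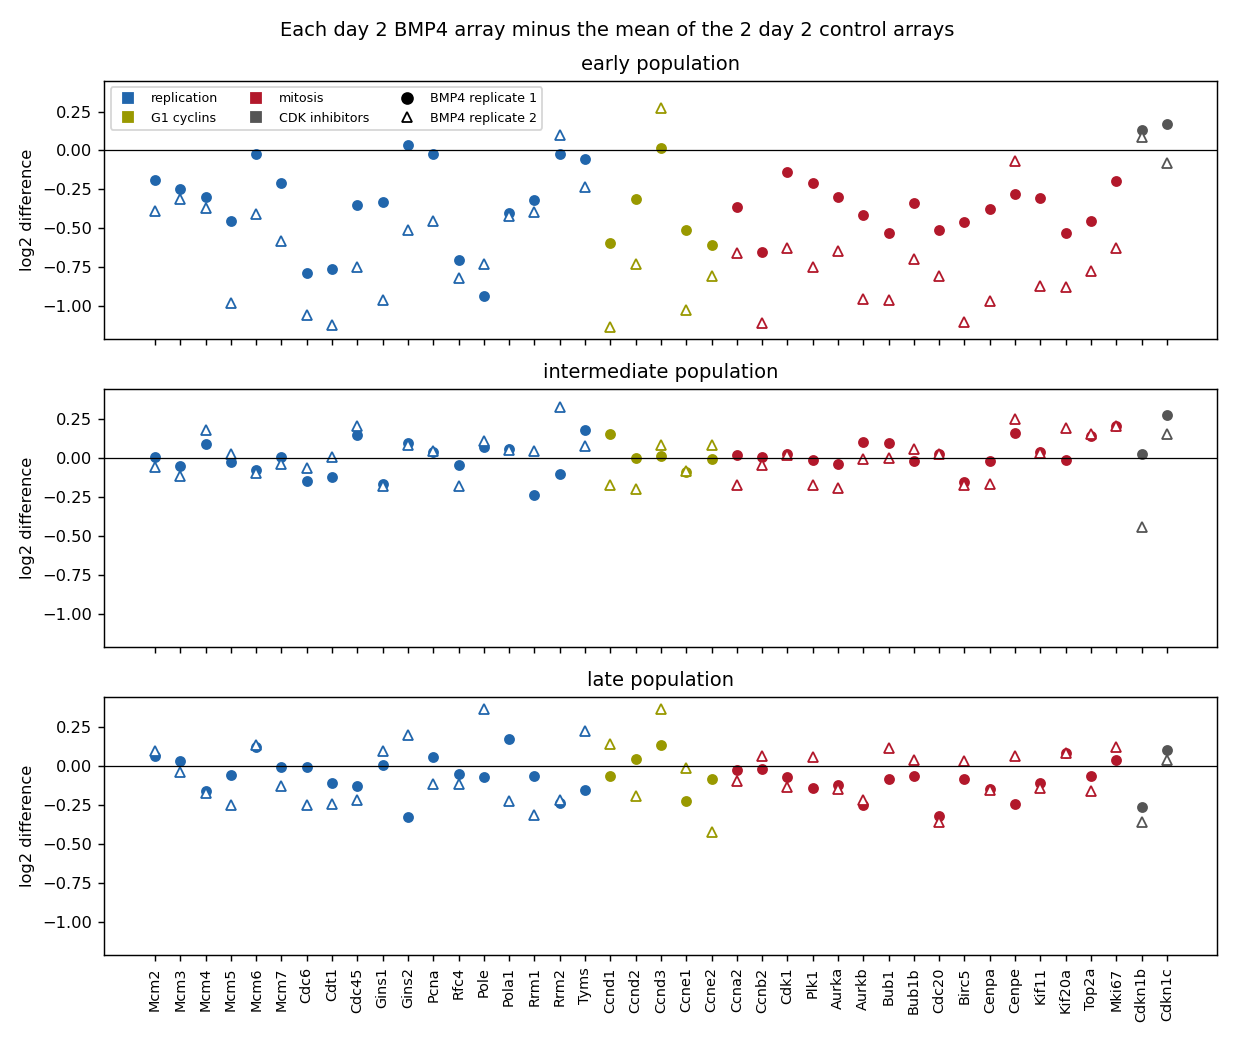
Each day 2 BMP4 array minus the mean of the 2 day 2 control arrays of its population, log2 scale, for the 41 measured members. Filled circles are replicate 1, open triangles replicate 2, and colours give the class. In the early population 34 members have both BMP4 arrays below both controls and replicate 2 is mostly the lower, whereas the intermediate and late values scatter around 0.

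Other genes moved on the same early day 2 arrays. Summed signal of 9 macrophage and leukocyte markers was 1451.6 and 1449.3 with BMP4 against 510.7 and 585.5 in controls. Summed signal of 10 cartilage genes was 10291.2 and 3986.1 with BMP4 against 16873.9 and 16869.5. In the intermediate day 2 cultures, where the members' median was 0.02, the macrophage sum was also higher with BMP4, at 1184.4 and 1237 against 587.8 and 614.8, and in the late cultures it was 434.4 and 516.4 against 468.2 and 431.6. The early replicate with the lower cell cycle levels also had the lower cartilage sum, and the part of either list in the result was not tested.

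In the early population at day 1, Ccnd1 alone was called, at 10.31 and 10.31 with BMP4 against 11.14 and 10.92 (-0.71 ± 0.17, limma adjusted p = 0.0313), with 0.918% of tested genes lower. Ccnd1 was no longer called without early control replicate 1, early control replicate 2 or early BMP4 replicate 2. At that time 17 members had an unadjusted p below 0.05, all lower, against 15% of tested genes. Limma called 0 members in the intermediate (against 0.238% of tested genes, 5 with an unadjusted p below 0.05) and 0 in the late population (against 0.0793%, 1 with an unadjusted p below 0.05).

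The response itself was compared between populations over both days. For early against intermediate, Top2a alone passed (-0.57 ± 0.13, limma adjusted p = 0.0492), against 0.429% of tested genes, and 17 members had an unadjusted p below 0.05 (9.3% of tested genes). For early against late, 0 members were called (against 0.78%), with 15 at an unadjusted p below 0.05 (12% of tested genes) and Kif20a nearest (limma adjusted p = 0.0798). For intermediate against late, 0 members were called (against 0%), and 0 had an unadjusted p below 0.05. The Top2a call was lost with a pseudocount of 1, without the filter on low values, with median centring, with probe sets averaged, in a fit of the compared arrays alone and without the doubted arrays. It was also lost on leaving out most of the compared arrays singly, each of the 4 early control arrays included.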

How the data were processed

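Gene expression was measured on 30 Affymetrix arrays of 45101 probe sets, 2 in each of 15 groups. The deposited values are linear signal intensities from MAS5, per the submitters' processing notes. Neither its settings nor its scaling is given in the sources used here, and the trimmed mean was 150 on every array. Median signal was 33.9 to 46.4 and replicate correlation 0.97 to 0.984, and the number of arrays limits the precision.

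From these, log2(signal + 16) was computed. Probe sets were named from the platform annotation (34945 with 1 symbol, 932 with several, 9160 with none), and the 64 control probe sets were left out. Probe sets were kept if they exceeded the array's 40th percentile (signal between 20.3 and 30.5) on 2 or more arrays, 33198 in all, and the brightest of each gene was used. Group means of all 15 groups were fitted with limma 3.58.1 in R 4.3.3 (eBayes with trend, 15 residual and 5.51 prior degrees of freedom), for 21 comparisons, with Benjamini-Hochberg adjustment in each over 15136 genes. The fit was tested on simulated data. By rule, all members could be named, and of each other list up to 3 genes with the smallest adjusted p in a comparison averaged over populations, beside Pitx1, Tbx5 and Meis2. The members and lists were chosen with earlier results of these data known. Promoters came from RefSeq. Alternatives were another pseudocount, no filter, quantile normalization, median centring, the mean of probe sets, fits of the compared arrays alone, a replicate block, leaving out each array, and leaving out the doubted day 0 arrays, whose doubt was known from earlier results.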

Additional observations from a re-analysis of the deposited data

Results flagged for a closer look

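In the main fit, Top2a was the only member whose response to BMP4 differed between populations by a test of that difference. Its call was lost under 6 of the 8 alternatives other than leaving out single arrays. Over days 1 and 2 the response was -0.57 lower on the log2 scale in the early than in the intermediate population (SE 0.13, limma adjusted p = 0.0492). The response of Top2a was -0.33 at day 1 and -0.61 at day 2 in the early population, 0.05 and 0.15 in the intermediate, and -0.18 and -0.11 in the late. The early population thus had the lower value on both days. The macrophage and cartilage sums of the early day 2 arrays, given above, moved on the same arrays, and their part in this result was not tested.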

How the results depend on the processing

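Counts of members called stayed within 1.5 times for day 1 and day 2 against day 0 averaged over populations (32 and 34) under all alternatives tried. Leaving out single arrays gave 25 to 31 and 32 to 34 for these. The range was 0 to 4 for day 2 against day 1, 2 to 13 for BMP4 at day 1 and 0 to 8 at day 2. By population it was 10 to 19 (early), 19 to 24 (intermediate) and 11 to 20 (late) for day 2 against day 0, 0 to 1 for BMP4 at day 1 (early, and likewise intermediate) and 1 to 20 at day 2 (early). It was 0 to 1 for intermediate against late controls, and 0 to 2 and 0 to 3 for the response of early against late and against intermediate. Median centring gave 0 for day 2 against day 1, 2 for BMP4 at day 1, and, for the response, 2 (early against late) and 0 (early against intermediate). It moved the median of all genes at day 2 with BMP4 from 0.02 to -0.15 (early) and from 0.02 to -0.12 (intermediate). A pseudocount of 1 and no filter each gave 0 for the response of early against intermediate. Quantile normalization gave 2 for BMP4 at day 2. With probe sets averaged, BMP4 at day 2 gave 2, the response of early against intermediate 0, and Ccnd3 at day 2 against day 0 turned to -0.15 (limma adjusted p = 0.253). Fits of the compared arrays alone gave 2 for BMP4 at both days, 0 and 1 in the early population at days 1 and 2, and 0 for the response of early against intermediate. Without the doubted arrays BMP4 gave 2 at day 2 and 2 in the early population at day 1, day 2 against day 0 gave 18 (intermediate) and 10 (late), and the response of early against intermediate gave 0. The causes were not tested. Of 105 correlations of deviations by replicate number, 60 lay over the limit of 0.1 set for pairing (median 0.12, range -0.12 to 0.35). The replicate numbers may thus pair the arrays in part, and the main fit held no replicate term. A replicate block gave 5 for day 2 against day 1, and 13 and 3 for BMP4 at days 1 and 2. Early BMP4 cultures of day 1 gave 3 with this block, intermediate against late controls 1, and the early against late response 2. With 2 arrays a group, single arrays limit all comparisons within populations.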
